A study of Homo sapiens with 6 samples.

Results

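The genes described here are 52 genes of mitosis, which build and drive the spindle, attach chromosomes to it and check that attachment. They were chosen by symbol from a list of mitotic spindle, kinetochore and checkpoint genes, with earlier results of these data known. All 52 were present in the count table of 26490 gene symbols. They passed the filter on low counts, as did 13832 symbols in all. RNA-seq compared 3 control libraries with 3 IRS2 knockdown libraries of SW403, an established human colon adenocarcinoma cell line. All cells were grown for 24 h in DMEM with serum, with no treatment. The IRS2 protein, insulin receptor substrate 2, is an adaptor through which insulin and IGF1 receptors signal into the cell. The sample labels call the control genotype WT and name the other IRS2_knockdown, their short codes read NS and IRS2KO, and they do not say how IRS2 was lowered or whether a group was more than 1 line or clone. P-values therefore measure the spread between these cultures, and an effect of IRS2 and a difference between the lines used cannot be told apart.

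During the G2 phase, cells raise the transcripts of the cyclin B and CDK1 kinase, of the Aurora and Polo kinases and of most kinetochore and spindle proteins, and these transcripts fall again after division. Earlier, in S phase, cells raise a different set, that of DNA replication. In a mixed culture, more cells in a phase and more RNA per cell in that phase cannot be told apart.

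The libraries held 11816973 to 12585013 counts in control and 14329348 to 18114656 in knockdown, so every knockdown library was the deeper. With counts thinned to the smallest library, 48 of the 52 members stayed on the same side of the threshold given below. Of the others, 3 lost their call and 1 gained one. Mitochondrial genes took 5.28% to 5.58% of counts in control and 5.78% to 5.81% in knockdown, which also did not overlap. The part of the mitochondrial share in the results below was not tested. IRS2 was at 32.1, 34.6 and 31.8 CPM (counts per 1e6 counts of the library, with TMM-scaled library sizes) in the control libraries and 13.1, 12.4 and 12.1 CPM in the knockdown libraries, and its groups did not overlap. Its log2 fold change was -1.39 ± 0.072 (SE, n = 3 per group), a 2.62-fold fall (edgeR adjusted p 3.12e-11). Of 11 colon epithelial markers, KRT8, KRT18, KRT19, EPCAM and CDX2 were expressed in every library, with EPCAM the lowest of them at 38.7, 39.5 and 41.3 CPM in control and 32.8, 34.1 and 35.9 CPM in knockdown. Some of these markers moved with the group: KRT19 fell (-0.47 ± 0.042 SE, edgeR adjusted p 4.35e-08), EPCAM fell (-0.21 ± 0.057 SE, edgeR adjusted p 0.00581) and CDX2 rose (0.14 ± 0.043 SE, edgeR adjusted p 0.0148). VIL1 was at 4.87, 3.25 and 4.76 and 5.42, 5.80 and 5.22 CPM, KRT20 and CDX1 had no counts, and CDH1, CDH17 and LGALS4 stayed under 1 CPM. Of 10 markers of other cell types, COL1A1 was at 15.2, 5.70 and 5.60 CPM in control and 4.29, 3.67 and 4.04 CPM in knockdown, COL1A2 was at 6.76, 0.871 and 0.251 and 0.563, 0.0592 and 0.449 CPM, CD68 was at 1.42, 0.792 and 2.26 and 2.39, 1.30 and 1.23 CPM, and PTPRC, CD3E, VWF, DCN, GFAP, ALB and PECAM1 stayed under 1 CPM in every library. Control replicate 1 was the highest for both collagens, and the part of such cells in the results below was not tested.

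Most of the 52 chosen mitosis genes were slightly higher after IRS2 knockdown. Of the 52 genes, 33 rose, 3 fell and 16 did not pass the threshold, set at 0.05 for p-values of the edgeR quasi-likelihood fit adjusted over all tested genes. Over all 13832 tested genes, 38.5% passed, 19.3% higher and 19.2% lower. The members' median log2 fold change was 0.16, from -0.25 (BIRC5) to 0.63 (CDC25B), against -0.0039 over all tested genes. In 34 of the 52 genes every knockdown library lay above every control library, and in 3 every one lay below. Over all tested genes these shares were 23.7% and 23.9%, or 47.6% in either direction. No member changed 2-fold, and 25 kept their call in each of the 19 alternative analyses, 24 higher and 1, BIRC5, lower. With DESeq2's Wald test CDC25C, PLK4, MAD2L1, CENPF, NDC80, SPC24, KIF22, CDCA3 and MKI67 did not pass. For comparison at like abundance, among 7302 tested genes within the members' range of mean counts, 27.3% were higher and 17.0% lower. Of 124 other tested mitosis genes, described below, 28.2% were higher and 16.1% lower.

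**Figure D1:**
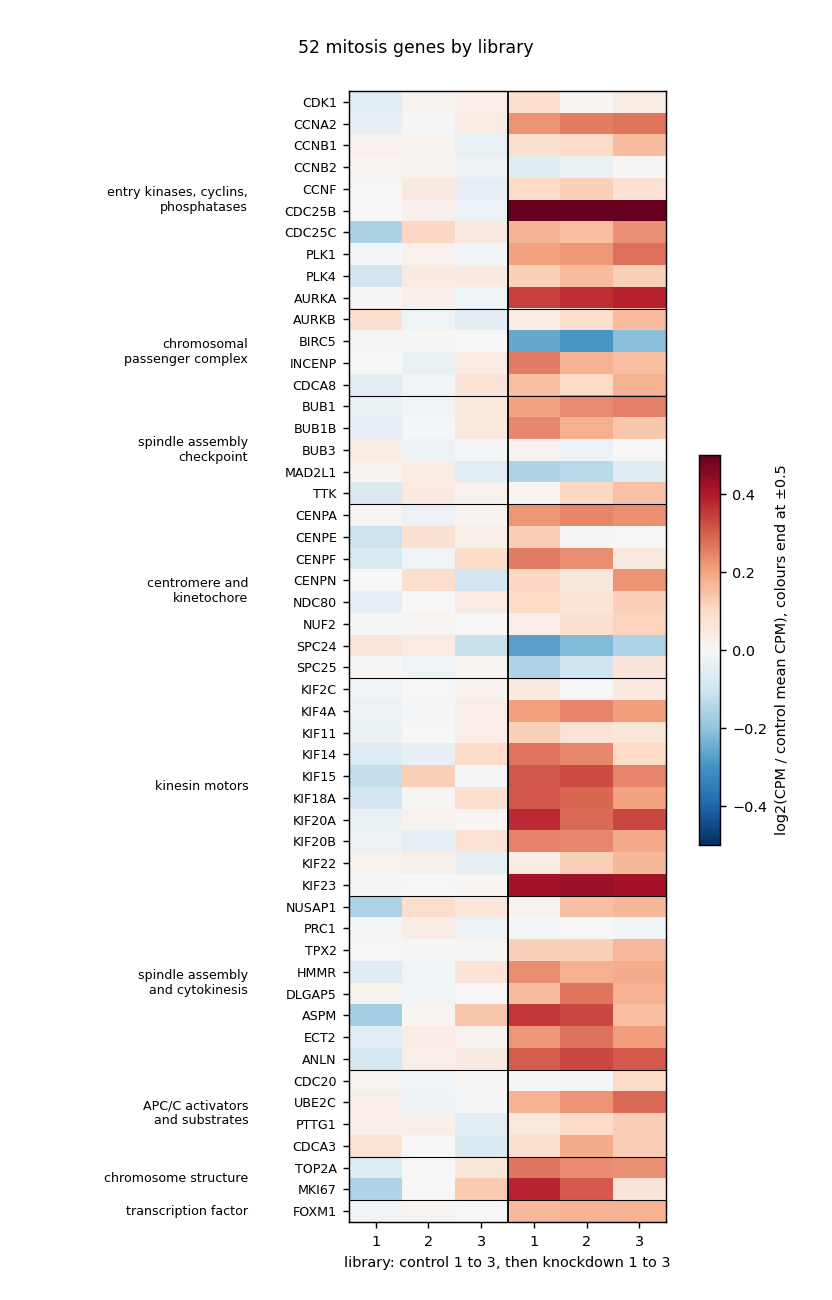
Level of each of the 52 mitosis genes (rows, grouped by role) in each of the 6 libraries (columns), as log2 of CPM over the control mean, red above and blue below. The knockdown columns are mostly red, deepest for CDC25B, and blue for BIRC5, MAD2L1 and SPC24, the 3 genes that fell.

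Among genes of S phase, more fell than rose. Of 64 S-phase genes, 31 fell (48.4%), 3 rose (4.69%) and 30 did not pass the threshold, and their median log2 fold change was -0.11. Over all tested genes 19.2% were lower and 19.3% higher. PCNA, the sliding clamp of the replication fork, was at 565, 558 and 541 CPM in control and 455, 465 and 474 CPM in knockdown. Its groups did not overlap (log2 fold change -0.25 ± 0.03 SE, edgeR adjusted p 1.48e-06). Of the S-phase genes that rose, E2F8, an E2F-family repressor that acts late in S phase, had the smallest p (log2 fold change 0.26, edgeR adjusted p 0.00171).

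Each knockdown library showed both shifts. Relative to the control mean, the mean log2 CPM of the 52 mitosis genes was -0.029, 0.014 and 0.015 in the control libraries and 0.15, 0.15 and 0.15 in the knockdown libraries. The mean of the 64 S-phase genes was -0.0062, -0.0052 and 0.011 in control and -0.12, -0.12 and -0.099 in knockdown. The mitosis genes took 0.897% to 0.940% of all counts in control and 1.01% to 1.03% in knockdown, while the S-phase genes took 1.06% to 1.07% and 0.970% to 0.985%. Neither pair of ranges overlapped. The difference between the lists was not itself tested.

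**Figure D2:**
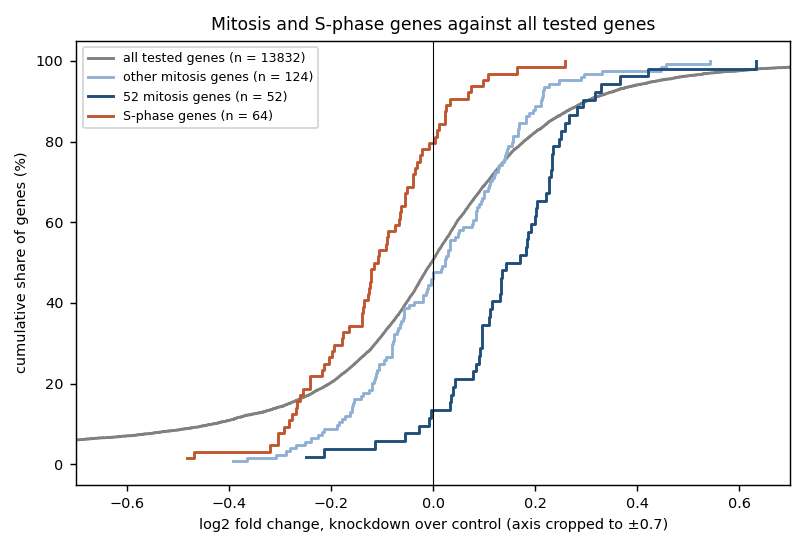
Cumulative share of genes (vertical axis, percent) by log2 fold change of knockdown over control (horizontal axis, cropped to ±0.7) for the 52 mitosis genes, 124 other mitosis genes, 64 S-phase genes and all 13832 tested genes. The curve of the 52 genes lies to the right of all tested genes through its middle (medians 0.16 and -0.0039) and that of the S-phase genes to the left (median -0.11).

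Mitotic promoters are known for a shared layout, in which a CHR element (cell cycle genes homology region) lies near the start of transcription behind one or more CCAAT boxes. The CHR is bound by MuvB complexes, which repress these genes in resting cells and activate them in G2 with B-MYB and FOXM1, and the CCAAT box by NF-Y. Replication genes more often carry sites for E2F factors. These words were looked for in RefSeq windows of 300 bases (build GRCh38.p14, from 250 bases before to 50 after each annotated start) on both strands, with words allowed to share bases: TTTGAA or TTCGAA for the CHR, CCAAT for the CCAAT box, and TTTCCCGC, TTTCGCGC, TTTGCCGC or TTTGGCGC for E2F. For 45 of the 52 members the table held 58 windows. AURKA, BIRC5, BUB3, TTK, TPX2, UBE2C and FOXM1 had none.

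A CHR word was in 41 of the 58 windows (70.7%), against 11.75% of the 15795 windows of tested genes and 16.4% of all 35116 windows. A CCAAT word was in 43 of the 58 (74.1%), against 34.4% and 34.6%. Of the 68 windows of S-phase genes, 8.82% held a CHR word, 58.8% a CCAAT word and 45.6% an E2F word. The E2F word was in 8.62% of the members' windows and 4.88% of those of tested genes. For the 126 other mitosis genes described below there were 147 windows. Of these, 35.4% held a CHR word, 45.6% a CCAAT word and 12.9% an E2F word. Of the members' 56 CHR words, 25 (44.6%) began within the 60 bases before the start, against 17.1% of such words over all windows. Among members that rose, 26 of 29 genes with a window had a CHR word in at least 1, and among those that did not pass the threshold 10 of 14 had one. A match describes the letters of a window and does not show that a factor binds there.

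**Figure D3:**
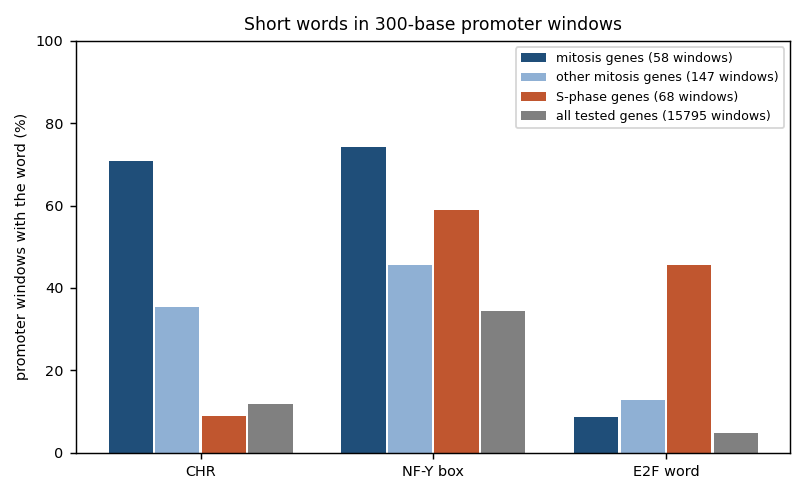
Share of promoter windows (vertical axis, percent) that hold a CHR word, an NF-Y (CCAAT) box or an E2F word, for the 52 mitosis genes, 126 other mitosis genes, 64 S-phase genes and all tested genes, with the number of windows in the key. CHR words are in 70.7% of the windows of the 52 genes and 8.82% of those of S-phase genes, and E2F words in 8.62% and 45.6%.

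The 120 bases before the start show this layout in 4 genes that rose, picked because both words lie there, CDC25B, KIF23, PLK1 and KIF4A, and in 2 that did not pass the threshold, PRC1 and CCNB2. Capitals mark the CHR and CCAAT words, also where they read on the other strand. The stretches are chr20:3796190-3796309, plus strand (CDC25B, 1 of 4 listed starts), chr15:69414229-69414348, plus strand (KIF23), chr16:23678769-23678888, plus strand (PLK1), chrX:70289984-70290103, plus strand (KIF4A), chr15:90994536-90994655, minus strand (PRC1) and chr15:59105026-59105145, plus strand (CCNB2).
CDC25B: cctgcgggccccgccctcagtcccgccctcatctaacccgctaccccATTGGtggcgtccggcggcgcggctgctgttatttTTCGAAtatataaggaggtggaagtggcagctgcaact
KIF23: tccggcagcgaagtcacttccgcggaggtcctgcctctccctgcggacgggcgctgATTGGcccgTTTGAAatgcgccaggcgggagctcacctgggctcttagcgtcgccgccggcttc
PLK1: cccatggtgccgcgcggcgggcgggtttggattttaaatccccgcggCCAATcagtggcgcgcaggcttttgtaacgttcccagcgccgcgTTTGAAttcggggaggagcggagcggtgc
KIF4A: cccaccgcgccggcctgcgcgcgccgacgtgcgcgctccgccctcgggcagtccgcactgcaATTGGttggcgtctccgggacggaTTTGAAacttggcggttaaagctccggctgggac
PRC1: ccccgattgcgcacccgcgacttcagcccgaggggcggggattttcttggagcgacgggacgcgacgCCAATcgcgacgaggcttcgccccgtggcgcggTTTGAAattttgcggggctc
CCNB2: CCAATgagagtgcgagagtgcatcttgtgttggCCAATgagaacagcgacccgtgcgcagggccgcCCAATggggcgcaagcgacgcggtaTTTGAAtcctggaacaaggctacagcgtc
The CHR word began 38 bases before the start in CDC25B, 55 in KIF23, 29 in PLK1, 34 in KIF4A, 20 in PRC1 and 29 in CCNB2. The nearest CCAAT word lay further out, at 73, 64, 73, 58, 53 and 54 bases.

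For contrast, the first 3 S-phase genes of the list that fell and hold both words within this stretch are shown, with capitals for the CCAAT and E2F words. They are MCM6 (chr2:135876444-135876563, minus strand), PCNA (chr20:5126623-5126742, minus strand) and UNG (chr12:109098052-109098171, plus strand), which encode a subunit of the replicative helicase, the sliding clamp and uracil-DNA glycosylase.
MCM6: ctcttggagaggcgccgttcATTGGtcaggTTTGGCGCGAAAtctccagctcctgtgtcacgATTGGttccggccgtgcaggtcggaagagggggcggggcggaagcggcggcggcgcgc
PCNA: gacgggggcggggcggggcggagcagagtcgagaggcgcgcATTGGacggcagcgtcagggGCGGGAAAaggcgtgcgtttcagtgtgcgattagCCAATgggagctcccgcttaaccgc
UNG: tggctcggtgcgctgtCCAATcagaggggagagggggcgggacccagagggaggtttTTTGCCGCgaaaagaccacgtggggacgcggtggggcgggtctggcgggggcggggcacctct
Their log2 fold changes were -0.20 ± 0.031, -0.25 ± 0.03 and -0.32 ± 0.04 (SE), with edgeR adjusted p-values of 6.68e-05, 1.48e-06 and 3.1e-06.

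Among the 10 genes for entry into mitosis, 7 rose and 3, CDK1, CCNB2 and CCNF, did not pass the threshold. Within the members' range of mean counts, 27.3% of tested genes were higher. CDC25B encodes a phosphatase that removes the inhibitory phosphates from cyclin-dependent kinases. It was at 237, 241 and 233 CPM in control and 369, 359.6 and 374 CPM in knockdown. Its libraries were far apart for this set, and its log2 fold change of 0.63 ± 0.031 (SE; 1.55-fold; edgeR adjusted p 1.98e-11) was the largest of the 52. AURKA, the Aurora A kinase of centrosomes and spindle poles (GRCh37 chr20:54944445-54967393, 9 exons), was at 196, 200.2 and 194 CPM and 248.98, 254 and 257 CPM. All knockdown values lay above all control values, with a log2 fold change of 0.37 ± 0.032 (SE; 1.29-fold; edgeR adjusted p 3.99e-08). CCNA2, whose cyclin A2 acts in S phase and G2, was at 184, 189 and 195 CPM and 221, 226 and 228 CPM (0.25 ± 0.033 SE, edgeR adjusted p 7.6e-06). PLK1, the Polo-like kinase that promotes entry and spindle assembly, was at 197, 201 and 196 CPM and 227, 230.2 and 239.7 CPM (0.23 ± 0.033 SE, edgeR adjusted p 1.73e-05).

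The core kinase itself did not pass the threshold. CDK1 was at 115, 121 and 122 CPM in control and 126, 120.2 and 122 CPM in knockdown. The groups overlapped, and the difference of 0.043 ± 0.038 (SE; 95% interval -0.038 to 0.12) did not pass (edgeR adjusted p 0.409). After the length and GC correction CDK1 passed, with a log2 fold change of 0.10 (edgeR adjusted p 0.0272). Its partner CCNB1, cyclin B1, was at 272, 271 and 261 CPM and 283, 286 and 298 CPM and rose by a small amount (0.11 ± 0.033 SE; 1.08-fold; edgeR adjusted p 0.0112). CCNB2, cyclin B2, had a difference of -0.028 ± 0.037 (SE; interval -0.11 to 0.049; edgeR adjusted p 0.591). CCNF, the F-box protein cyclin F, had 0.095 ± 0.042 (SE; edgeR adjusted p 0.0846), with groups that did not overlap. CDC25C, another phosphatase of the family (0.19, edgeR adjusted p 0.0389), and PLK4, the kinase of centriole duplication (0.13, edgeR adjusted p 0.0393), passed narrowly. Without control replicate 1 their adjusted p was 0.233 and 0.209, and without knockdown replicates 1, 2 and 3 it was 0.0598, 0.0610 and 0.102 for CDC25C and 0.0606, 0.131 and 0.0502 for PLK4.

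**Figure D4:**
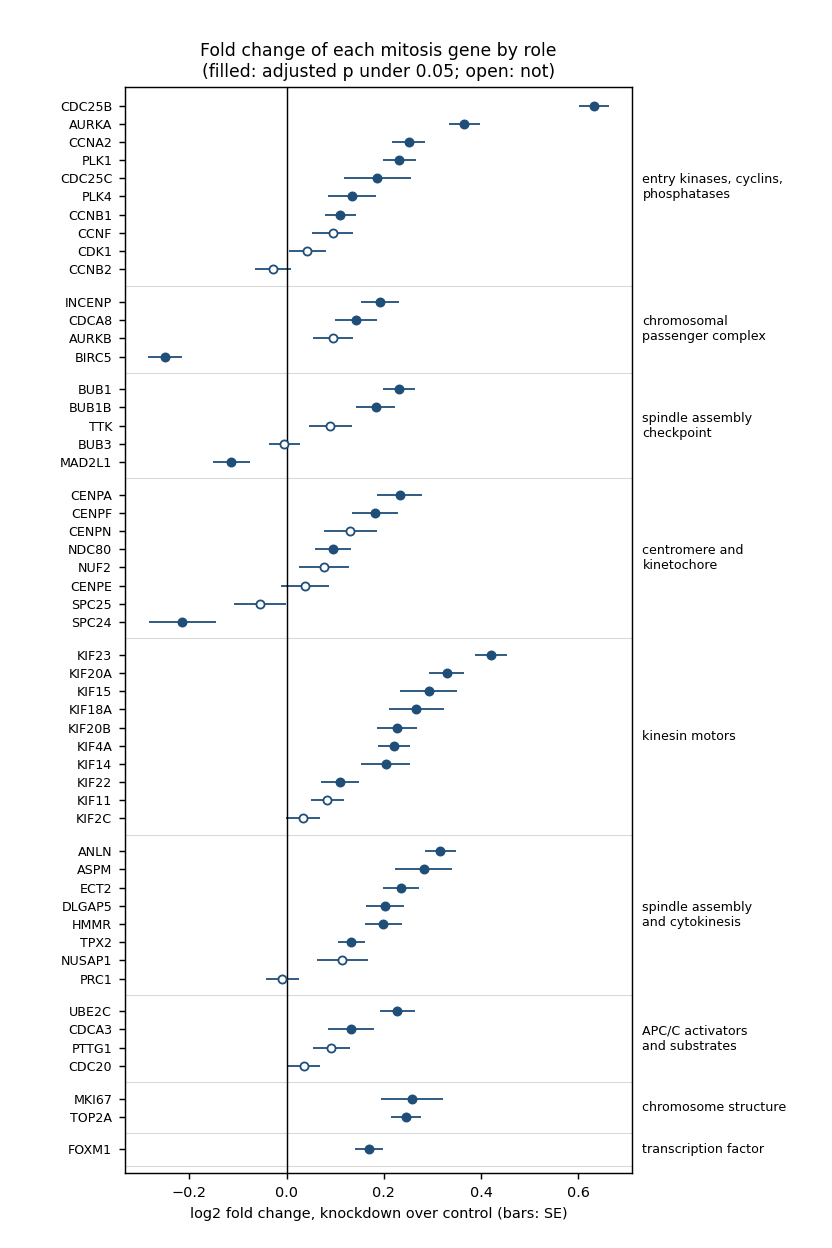
Log2 fold change of knockdown over control (horizontal axis) for each of the 52 genes (vertical axis), grouped by role and ordered within it. Points are estimates from the edgeR fit with bars of 1 SE, filled where the adjusted p was under 0.05. Filled points sit right of 0 for 33 genes and left of 0 for BIRC5, MAD2L1 and SPC24.

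The 4 genes of the chromosomal passenger complex, which corrects faulty attachments and later sits at the midzone, did not move as one. BIRC5 encodes survivin, a subunit that also inhibits cell death (GRCh37 chr17:76210267-76221717). It was at 162, 164 and 163 CPM in control and 136, 133 and 141 CPM in knockdown. The control values were nearly identical and all knockdown values lay below them (-0.25 ± 0.035 SE, a 1.19-fold fall, edgeR adjusted p 1.45e-05). INCENP, the scaffold, was at 129, 126 and 133 CPM and 154, 146 and 144 CPM and rose (0.19 ± 0.039 SE, edgeR adjusted p 0.000593). CDCA8, borealin, was at 85.5, 87.7 and 92.7 CPM and 98.5, 94.97 and 100.1 CPM and rose (0.14 ± 0.043 SE, edgeR adjusted p 0.0119). The groups of INCENP and of CDCA8 did not overlap. The kinase of the complex, AURKB, was at 169.7, 159 and 155 CPM and 165, 171 and 179.8 CPM, with overlapping groups and a difference of 0.095 ± 0.041 (SE; interval 0.0099 to 0.18; edgeR adjusted p 0.0726). CDCA8 did not pass without control replicate 1 (adjusted p 0.0627), while AURKB passed without control replicate 1 (0.0209), without knockdown replicate 1 (0.0372) and after the length and GC correction (0.00148).

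Of the 5 genes of the spindle assembly checkpoint, which holds back anaphase until every kinetochore is attached, 2 rose and 1 fell. Within the members' range of mean counts, 27.3% of tested genes were higher and 17.0% lower. BUB1, a checkpoint kinase, was at 230.4, 234 and 245 CPM in control and 271, 279 and 282 CPM in knockdown (0.23 ± 0.033 SE, edgeR adjusted p 1.9e-05). BUB1B, which encodes the BUBR1 subunit of the checkpoint complex, was at 112, 114 and 119 CPM and 136, 130.3 and 126 CPM (0.18 ± 0.04 SE, edgeR adjusted p 0.00118). Neither gene's groups overlapped. MAD2L1, whose product MAD2 binds and inhibits CDC20, was at 156, 158 and 148 CPM and 139, 140.4 and 148 CPM and fell (-0.11 ± 0.038 SE, edgeR adjusted p 0.0243), although control replicate 3 and knockdown replicate 3 were almost level. BUB3, the adaptor that brings both BUB proteins to kinetochores, had a difference of -0.0045 ± 0.032 (SE; interval -0.071 to 0.062), and TTK, the kinase MPS1 that starts the signal, of 0.09 ± 0.044 (SE; interval -0.003 to 0.18; edgeR adjusted p 0.931 and 0.120). The call of MAD2L1 was lost without control replicate 1 (adjusted p 0.0688), control replicate 2 (0.144), knockdown replicate 1 (0.102) or knockdown replicate 2 (0.0965). TTK passed without knockdown replicate 1 (0.0409) and after the length and GC correction (0.0199).

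In the group of 8 centromere and kinetochore genes, 3 rose (37.5%), 1 fell (12.5%) and 4 did not pass the threshold. Of tested genes within the members' range of mean counts, 27.3% were higher and 17.0% lower. CENPA, the histone H3 variant that marks centromeres (GRCh37 chr2:26987157-27023935), was at 50.2, 48.8 and 50.4 CPM in control and 58.1, 59.1 and 58.4 CPM in knockdown. Its values were tight in each group and did not overlap (0.23 ± 0.046 SE, edgeR adjusted p 0.000486). CENPF, a large protein of the outer kinetochore, was at 355, 368 and 399 CPM and 447, 439 and 387 CPM. Knockdown replicate 3 fell within the control range, and the log2 fold change was 0.18 ± 0.047 (SE; edgeR adjusted p 0.00456; DESeq2 Wald adjusted p 0.0721). The 4 subunits of the NDC80 complex, which grips microtubules, shared no direction: NDC80 rose and SPC24 fell. NDC80 was higher by 0.095 ± 0.037 (SE, edgeR adjusted p 0.0496) and NUF2 had a difference of 0.077 ± 0.052 (edgeR adjusted p 0.263). SPC24 was at 27.9, 27.6 and 24.8 CPM and 22.2, 23.0 and 24.0 CPM and fell (-0.21 ± 0.069 SE, edgeR adjusted p 0.0182), and SPC25 had a difference of -0.055 ± 0.054 (edgeR adjusted p 0.454). The kinetochore motor CENPE (0.038 ± 0.049) and CENPN, a reader of the CENPA nucleosome (0.13 ± 0.054), did not pass either (edgeR adjusted p 0.580 and 0.0636).

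Some calls in this group lay near the threshold and were lost with fewer libraries, at similar fold changes (0.075 to 0.11 for NDC80 and -0.21 to -0.18 for SPC24 in the fits that lost the call). The adjusted p of NDC80 was 0.175 without control replicate 1, 0.105 without control replicate 2 and 0.0896, 0.0743 and 0.110 without knockdown replicates 1, 2 and 3. That of SPC24 was 0.0757 and 0.0815 without control replicates 1 and 2 and 0.0635 and 0.0525 without knockdown replicates 1 and 2, while CENPN passed without control replicate 2 (0.0279) or knockdown replicate 2 (0.0407).

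The kinesins, motors that move along microtubules, rose in 8 of 10 cases, none of the 10 fell, and the median log2 fold change was 0.22. Within the members' range of mean counts, 27.3% of tested genes were higher and 17.0% lower. KIF23 encodes MKLP1, the motor of the centralspindlin complex that organises the midzone for cytokinesis. It was at 152, 153 and 154 CPM in control and 204, 206 and 204 CPM in knockdown. Replicates were almost level within each group and the groups were well apart (0.42 ± 0.032 SE; 1.34-fold; edgeR adjusted p 7.11e-09). KIF20A, MKLP2, which carries the passenger complex to the midzone, was at 149, 155 and 154 CPM and 197, 186 and 192 CPM (0.33 ± 0.035 SE; 1.26-fold; edgeR adjusted p 5.56e-07). KIF4A, a chromosome-bound motor that also limits midzone length, was at 201, 205 and 210.0 CPM and 236, 243 and 237 CPM (0.22 ± 0.032 SE, edgeR adjusted p 2.39e-05). For these 2 genes as well, every knockdown value was above every control value.

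Among the other kinesins, KIF15, KIF18A, KIF20B, KIF14 and KIF22 rose, with log2 fold changes of 0.29, 0.27, 0.23, 0.20 and 0.11. KIF11, the Eg5 motor that pushes spindle poles apart, had a difference of 0.084 ± 0.035 (SE; edgeR adjusted p 0.0639), and the microtubule depolymerase KIF2C, or MCAK, of 0.033 ± 0.035 (SE; interval -0.04 to 0.11; edgeR adjusted p 0.494). KIF22 lost its call in 5 of the 6 analyses that left out a library, with an adjusted p of 0.0553, 0.0513 and 0.110 without control replicates 1, 2 and 3 and 0.103 and 0.122 without knockdown replicates 2 and 3. KIF11 passed without control replicate 3 (0.0448), without knockdown replicate 3 (0.0396) and after the length and GC correction (0.0276).

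Of the 8 genes for spindle assembly and cytokinesis 6 rose, and NUSAP1 and PRC1 did not pass the threshold. Within the members' range of mean counts, 27.3% of tested genes were higher. ANLN encodes anillin, the scaffold of the contractile ring. It was at 491, 531 and 536 CPM in control and 641, 655 and 643 CPM in knockdown, a wide gap between groups (0.32 ± 0.033 SE; 1.25-fold; edgeR adjusted p 3.18e-07). ECT2, the exchange factor that activates RhoA at the cleavage site, was at 139, 149 and 147 CPM and 169, 175 and 167 CPM (0.24 ± 0.037 SE, edgeR adjusted p 4.82e-05). DLGAP5, or HURP, which stabilises kinetochore fibres, was at 124, 121 and 122 CPM and 137, 148 and 138 CPM (0.20 ± 0.038 SE, edgeR adjusted p 0.000352). Neither ECT2 nor DLGAP5 had overlapping groups. ASPM, a protein of the spindle poles, HMMR, a spindle pole protein, and TPX2, which activates Aurora A, rose with log2 fold changes of 0.28, 0.20 and 0.13. PRC1, the midzone bundler that works with KIF4A and KIF23, had a difference of -0.0085 ± 0.033 (SE; interval -0.078 to 0.062; edgeR adjusted p 0.868), and NUSAP1, which bundles microtubules near chromosomes, of 0.11 ± 0.052 (SE; edgeR adjusted p 0.0886). NUSAP1 passed without control replicate 2 (0.0344), without knockdown replicate 1 (0.0261) and after the length and GC correction (0.0180).

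The next 4 genes act with or on the anaphase-promoting complex, the ubiquitin ligase that ends mitosis. UBE2C, its ubiquitin-conjugating enzyme, was at 167, 160.4 and 162 CPM in control and 184, 190.3 and 198 CPM in knockdown and rose without overlap (0.23 ± 0.036 SE, edgeR adjusted p 5.79e-05). CDCA3, a substrate, was at 73.5, 70.1 and 66.7 CPM and 74.3, 79.7 and 76.4 CPM and rose by 0.13 ± 0.047 on the log2 scale (SE, edgeR adjusted p 0.0317). CDC20, the activator that the checkpoint inhibits, was at 266, 259.8 and 265 CPM and 265, 262 and 283 CPM, with overlapping groups and a difference of 0.035 ± 0.034 (SE; interval -0.037 to 0.11; edgeR adjusted p 0.460). PTTG1, securin, was at 122, 122 and 115 CPM and 124, 128 and 131 CPM, which did not overlap but also did not pass (0.092 ± 0.038 SE, edgeR adjusted p 0.0647). CDCA3 did not pass without control replicate 2 (adjusted p 0.0751), control replicate 3 (0.132) or knockdown replicate 2 (0.152), and PTTG1 passed after the length and GC correction (0.000127).

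A pair of common proliferation markers and the transcription factor of the G2 programme rose as well. TOP2A, topoisomerase II alpha, which untangles sister chromosomes, was at 535, 557 and 579.8 CPM in control and 671, 657 and 653 CPM in knockdown, without overlap (0.25 ± 0.031 SE, edgeR adjusted p 4.45e-06). MKI67, the Ki-67 protein that coats mitotic chromosomes, was at 624, 694 and 759 CPM and 902, 857 and 724 CPM. Its libraries spread more than those of most members, knockdown replicate 3 lay below control replicate 3, and the log2 fold change was 0.26 ± 0.063 (SE, edgeR adjusted p 0.00306; DESeq2 Wald adjusted p 0.103). FOXM1, which activates many G2 genes, was at 328, 334 and 331 CPM and 370.3, 373 and 373 CPM, tight within groups and apart between them (0.17 ± 0.029 SE; 1.12-fold; edgeR adjusted p 0.000118).

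Levels per length of the canonical transcript, in control CPM per kb, ran from 8.52 (KIF15) to 209.8 (UBE2C). The next highest after UBE2C were PTTG1 at 167, CDC20 at 159.8, TPX2 at 139, CCNB1 at 132 and AURKB at 129.6 CPM per kb, and the lowest after KIF15 were KIF18A at 11.3, SPC24 at 11.7 and CENPE at 11.9. The midzone motor KIF23 was at 41.9 CPM per kb in control and 56.0 in knockdown, and its partner PRC1, with no call, at 56.6 and 56.3.

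Fold change and transcript length moved together in these libraries. Among the 8839 tested genes whose mean count reached 200, Spearman's rho between length and log2 fold change was 0.24, and among the 52 members it was 0.28. These describe genes that share the same 6 libraries. The members' median length was 3084 nt and that of the S-phase genes 3127 nt. Median GC content was 42.6% for the members, 44.6% for the S-phase genes and 49.0% for all tested genes. The part of GC content by itself was not tested. Of the 16 members longer than 4000 nt, 11 rose and 1 fell, against 33.8% higher and 12.6% lower among those of the 8839 genes that are as long. Of the 26 members over 2000 and up to 4000 nt, 19 rose and 2 fell, against 24.4% and 16.7%, and of the 10 shorter ones 3 rose and none of the 10 fell, against 12.1% and 25.7%. After a correction for length and GC content, 39 members rose and 3 fell, with a median of 0.16, and 5 S-phase genes rose and 35 fell, with a median of -0.10. The correlation with length was then 0.10 over the 8839 genes and 0.13 over the members. The share of all tested genes called after the correction is not given here. The added calls are therefore not read as particular to either list.

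**Figure D5:**
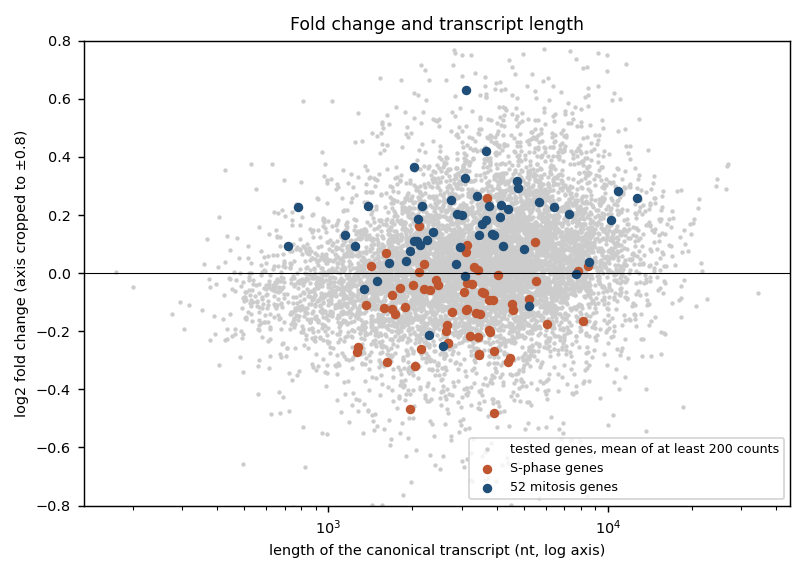
Log2 fold change (vertical axis, cropped to ±0.8) against canonical transcript length in nt (horizontal log axis), for the 8839 more abundant tested genes (grey), the 52 mitosis genes (blue) and 64 S-phase genes (orange). The blue and orange points cover similar lengths (medians 3084 and 3127 nt), with most blue points above 0 and most orange points below.

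The replicates of 4 of the 6 longest members came in 1 order. In MKI67 (12716 nt), ASPM (10863 nt), CENPF (10290 nt) and KIF14 (7291 nt), control replicate 1 was the lowest and control replicate 3 the highest control library, and knockdown replicate 3 was the lowest knockdown library. ASPM was at 177, 201 and 219 CPM in control and 255, 251 and 221 CPM in knockdown, and KIF14 at 86.1, 87.5 and 96.5 and 109, 106 and 96.5 CPM. CENPE and BUB3, which are also longer than 7291 nt, did not show this order. The log2 fold changes of the first 4 genes after the length and GC correction were 0.22, 0.28, 0.17 and 0.20.

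Other genes of mitosis were called about as often as tested genes within the members' range of mean counts. Of 126 further genes in 7 lists, 124 were tested, of which 35 rose (28.2%) and 20 fell (16.1%). Their median log2 fold change was 0.023. Of the 7302 genes within the members' range, 27.3% were higher and 17.0% lower. That range was not set for these 124 genes, whose mean counts had a median of 932 against 2127 for the members. Some lay below it, such as LIN37 at 89.5. The 32 other spindle, centrosome and cytokinesis genes had 15 higher (46.9%) and 4 lower (12.5%). Among them FAM83D, which anchors casein kinase 1 to the spindle, was at 152, 151 and 151 CPM in control and 208, 208 and 206 CPM in knockdown (0.46 ± 0.032 SE, edgeR adjusted p 2.44e-09), and CKAP2L, a spindle protein, had 0.54 ± 0.047 (SE, edgeR adjusted p 3.07e-08). The gamma-tubulin gene TUBG1 (-0.16, edgeR adjusted p 0.00264) and the augmin subunit HAUS1 (-0.28, edgeR adjusted p 0.0140) fell. Of 8 condensin genes, 4 rose and none of the 8 fell, with NCAPH (0.17, edgeR adjusted p 0.00112) and SMC4 (0.11, edgeR adjusted p 0.00571) first by p.

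Among 28 other kinetochore and centromere genes, 6 rose (21.4%) and 5 fell (17.9%), near the 19.3% and 19.2% of all tested genes. Of the 7302 genes within the members' range of mean counts, 27.3% were higher and 17.0% lower. HJURP, the chaperone that loads CENPA, rose (0.29 ± 0.039 SE, edgeR adjusted p 7.43e-06), as did SKA2 (0.20, edgeR adjusted p 0.000932). ZWINT, a kinetochore protein that binds KNL1, fell from 133, 128 and 128 CPM to 98.0, 99.7 and 98.5 CPM (-0.39 ± 0.037 SE, edgeR adjusted p 1.09e-07), and so did MIS18A, which prepares centromeres for CENPA (-0.25, edgeR adjusted p 0.00180). In the list of the anaphase-promoting complex and sister separation, 6 of 22 rose (27.3%) and 4 fell (18.2%), near the shares of those 7302 genes. SGO2, which protects centromeric cohesion, and ESPL1, separase, rose (0.29 and 0.21; edgeR adjusted p 0.000112 and 0.000711), while UBE2S, the enzyme that extends ubiquitin chains after UBE2C, and CDCA5, sororin, fell (-0.37 and -0.31; edgeR adjusted p 1.32e-07 and 6.96e-06).

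Of 14 tested entry regulators 3 rose and 3 fell (21.4% each). Of all tested genes 19.3% were higher and 19.2% lower, and of the 7302 within the members' range of mean counts 27.3% and 17.0%. HASPIN and GTSE1 rose (0.21 and 0.18; edgeR adjusted p 0.00529 and 0.00183), and ENSA, a phosphatase inhibitor acting at entry, and PKMYT1, a kinase that restrains CDK1, fell (-0.29 and -0.21; edgeR adjusted p 6.41e-06 and 0.000160). Of 12 genes of the MuvB, DREAM and B-MYB complexes, 1 rose, RBL1 (0.14, edgeR adjusted p 0.0149), and 3 fell, with TFDP1, the E2F partner, at 236, 238 and 235 CPM and 195, 202 and 212 CPM (-0.22 ± 0.035 SE, edgeR adjusted p 6.88e-05) and RBBP4 at -0.11 (edgeR adjusted p 0.0155). The third was MYBL2, which encodes B-MYB, named after its values were seen (-0.096, edgeR adjusted p 0.0349). Of 8 other checkpoint genes only ZW10 passed, and it was lower (-0.16, edgeR adjusted p 0.0131).

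Chromosomes 1, 5 and 20 each held 4 members that rose, of 7, 5 and 4 members there. Of the tested genes on chromosome 1, 18.4% were higher and 17.0% lower, and on chromosome 5 26.1% and 16.2%. All 4 members on chromosome 20, CDC25B, AURKA, TPX2 and UBE2C, rose. On that chromosome 32.2% of 376 tested genes were higher and 12.2% lower, the largest share of higher calls among chromosomes 1 to 22 and X. The part of position in these results was not tested.

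Some members share exonic bases with a neighbour in GENCODE version 44 lifted to GRCh37. The strand setting of the counting is not given in the sources used here, so reads from opposite strands cannot be told apart. KIF20A overlaps BRD8 by 132 and CDC23 by 74 bases, and both were higher (0.25 and 0.16, edgeR adjusted p 3.01e-05 and 0.00612). NUSAP1 overlaps OIP5 by 352 bases (log2 fold change 0.25, edgeR adjusted p 0.00500) and, on its own strand, OIP5-AS1 by 195 bases, which fell (-0.23, edgeR adjusted p 0.000407). FOXM1 overlaps ITFG2 by 782 bases, with a log2 fold change of -0.027 for ITFG2 (edgeR adjusted p 0.706). KIF4A has a near-identical retrocopy, KIF4B, which was at 2.52, 3.803 and 3.76 CPM in control and 2.53, 2.96 and 3.25 CPM in knockdown, so the value of KIF4A is uncertain by what such reads added.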

How the data were processed

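The deposited table of whole-number counts per gene symbol, 1 column per library, was used for all tests. A second deposited table holds a normalized signal: per its values, the authors divided each count by 1 constant per library and kept genes with at least 10 counts in sum. Per the submitters' processing notes, STAR 2.6.1a, Salmon, DESeq2 and build hg19 were used, with no role given, and the annotation and strand setting are not given in the sources used here. Each column was tied to its sample by the sample's description, and none was left out.

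Counts were tested with edgeR 4.0.16 in R 4.3.3 (TMM factors, filterByExpr, quasi-likelihood F-test, group as the only term), with Benjamini-Hochberg adjustment over all tested genes and a threshold of 0.05. CPM use TMM-scaled library sizes. SE is the absolute log2 fold change over the square root of F, and 95% intervals of a difference use it with the fit's degrees of freedom. For a single gene, exact permutation of 3 against 3 libraries cannot give a p under 0.1. The 2 within-group libraries of every pair differed by more than counting error (chi-square per degree of freedom 1.41 to 2.78). The script was checked on simulated counts with known changes.

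The members, role lists, other lists and promoter words were chosen with earlier results of these data known. Values in every library were given for 12 fixed genes and the 3 smallest p-values of each role, and in other lists for up to 2 genes per direction, some of which are not reported here. Length and GC content came from 1 canonical GENCODE transcript per gene, and the correction subtracted a spline trend on both (4 degrees of freedom each) in each library. Alternatives were DESeq2 1.42.0, limma 3.58.1 (voom, and log2 of the deposited values plus 1), other scalings and filters, thinning, a threshold of 0.01, the correction, a replicate block and leaving out each library.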

Additional observations from a re-analysis of the deposited data

How the results depend on the processing

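Over the 19 alternatives, 887 of the 988 values of single members kept their side of the threshold. Of the others, 71 lost the call and 30 gained one, and none of the 988 reversed a call. A change of sign without a call was not counted as a change. CCNB2 (-0.059 to 0.013), BUB3, SPC25, PRC1 and CENPE, which had no call, changed sign in at least 1 alternative. Members past the threshold numbered 27 (26 higher) with DESeq2's Wald test, in which 1 was lower, and 27 with a threshold of 0.01, again with 1 lower. The 6 analyses without 1 library gave 30 to 35 members, 29 to 33 of them higher and 1 to 3 lower. The single lower member without control replicate 1 or 2 or knockdown replicate 1 or 2 was BIRC5, since MAD2L1 and SPC24 did not pass there. The members' median log2 fold change was 0.14 with upper-quartile factors and 0.13 with library size alone, which move the median of all tested genes to -0.025 and -0.035, and it ranged from 0.14 to 0.18 without 1 library. The S-phase median was -0.13 with upper-quartile factors, -0.14 with library size alone and -0.13 with genes of a mean of at least 50 counts. The number of S-phase genes called higher, 3, was 5 without the filter, with limma on the deposited values, and after the length and GC correction with or without the replicate block, 1 with the Wald test and with the 0.01 threshold, and 1 to 4 without 1 library. CDC25C, PLK4, NDC80, KIF22 and CDCA3 did not pass with upper-quartile factors or with library size alone. The causes of these changes were not tested, and the share of all tested genes called in each alternative is not given here. IRS2 kept its call in each.

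Replicate numbers are shared by both groups, but the deviations of libraries that carry the same number correlated at 0.045, -0.011 and -0.098, so the numbers were not taken as pairs. With the replicate block 31 members passed, 29 higher and 2 lower (30 shared with the fit without it), and 30 S-phase genes, 2 higher and 28 lower. Under this pairing the IRS2 log2 fold change was -1.39, and the medians were 0.16 for the members and -0.11 for the S-phase genes. With the block and the length and GC correction, 42 members passed, 39 of them higher.

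The least abundant members, SPC24 with a mean of 355 counts per library and CDC25C with 409, had SEs of 0.0685 and 0.069. The SE did not simply follow depth: it was 0.028 for TPX2 at 7316 counts and 0.063 for MKI67 at 11001.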
